A study of Mus musculus with 24 samples.

Results

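Hearts of mdx mice that also lacked Cmah were compared with hearts of mdx mice carrying Cmah, on the 6 of 24 arrays whose titles name cardiac muscle of these genotypes. Each group held 3 arrays, 1 per animal. All 6 animals were male, 2 months old and given the strain name C57BL6/10J, and both groups were dystrophin-deficient, so the groups differ by label in Cmah alone. The other heart arrays, 3 of wild type (WT) and 3 of Cmah knockout without mdx (both C57BL/6J), served to estimate the spread and as reference levels. The gastrocnemius, a calf muscle, of the same 12 animals was measured on the remaining 12 arrays. The labels give the same strain name for both compared groups and no number of backcrosses between them.

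Cmah encodes the hydroxylase that converts the sialic acid Neu5Ac, in its CMP-activated form, into Neu5Gc. Humans lost this enzyme, and the knockout mouse carries a human-like loss and makes no Neu5Gc of its own. Dystrophin links the cytoskeleton of heart and skeletal muscle cells, through dystroglycan and the sarcoglycans, to laminin in the basement membrane. The mdx mouse, the usual model of Duchenne muscular dystrophy, has a premature stop codon in Dmd and only mild heart disease when young, and the comparison asks what loss of Neu5Gc adds in such a heart.

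Each array was made from 25 ng of total RNA of whole cardiac muscle. The values are log2 of the deposited intensity of a probe set, a group of oligonucleotides for 1 transcript, and a difference of 1 is a doubling. The defining markers of ventricular muscle, Myh6, Myl2, Myl3, Tnni3, Tnnt2 and Actc1, added up to an intensity of between 63793 and 68833 in Cmah knockout mdx hearts and of between 61235 and 74097 in mdx hearts. The array labelled Cmah knockout mdx replicate 2 stood apart. Its Gapdh control probe sets differed by 4.43 between the 3′ and the 5′ end of the transcript, against 1.60 and 0.48 in replicates 1 and 3 and 0.48, 0.98 and 0.48 in the mdx arrays. This difference, a sign of RNA quality, could not pass an exact permutation test at this size (two-sided p = 0.2; the lowest possible is 0.1). The median correlation of replicate 2 with the other heart arrays was 0.857, and 1 Cmah knockout array without mdx stood apart more (0.543), while the remaining 10 heart arrays lay between 0.942 and 0.976. The median SD of a probe set was 0.67 over the 3 Cmah knockout mdx arrays, 0.42 without replicate 2, and 0.30 over the mdx arrays.

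**Figure D1:**
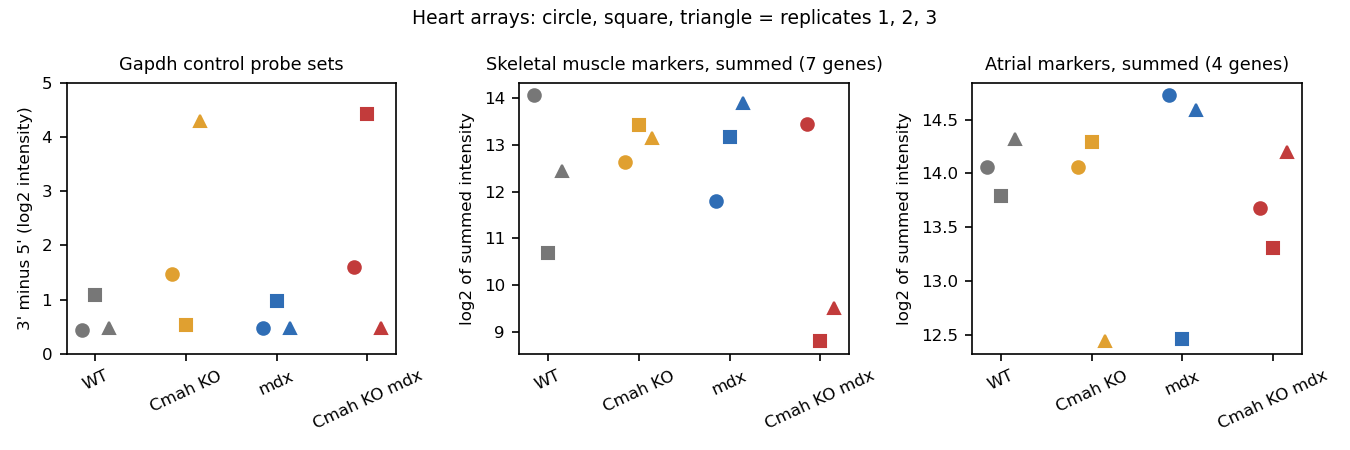
Array quality and tissue composition of the 12 heart arrays by genotype, 1 point per array. The panels show the 3′ minus 5′ log2 difference of the Gapdh control probe sets, and log2 of the summed intensity of 7 skeletal muscle and of 4 atrial markers; Cmah KO mdx replicate 2 (square) has a Gapdh difference of 4.43 and the lowest skeletal muscle sum.

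No probe set passed the threshold between Cmah knockout mdx and mdx hearts. Of 29421 probe sets tested over the 12 heart arrays, 0 (0%) had a Benjamini-Hochberg adjusted p below 0.05 in limma, the lowest adjusted p was 0.871, and 464 had an unadjusted p below 0.05. Without replicate 2 the count was again 0 (0%), with 106 at an unadjusted p below 0.05. Each gene was then read at its brightest probe set in heart, and 534 of 13128 genes (4.07%) were higher in all 3 Cmah knockout mdx arrays than in any mdx array, and 642 (4.89%) were lower. Without replicate 2 these shares were 5.95% and 6.7%. The median difference over all genes was -0.10, and -0.04 without replicate 2. The values below are therefore levels and differences of single genes and lists, none of which passed the test across all probe sets.

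Of Dmd and Cmah, neither separated the groups at its brightest probe set. Dmd read 8.81, 8.57 and 8.16 in Cmah knockout mdx hearts and 9.01, 8.44 and 9.12 in mdx hearts, a difference of -0.34 (SE 0.52), and the WT mean was 9.96 ± 0.10 (SD, n = 3). The 4 Dmd probe sets disagreed in direction: the others differed by -1.87 (SE 0.92), 0.98 (SE 0.67) and -0.44 (SE 0.53), and without replicate 2 by -0.91, 0.25 and -0.58. At the Dmd probe set with -1.87 the groups did not overlap, with 7.80, 5.12 and 8.24 against 9.10, 8.48 and 9.20. Cmah read 7.62, 7.56 and 5.66 against 6.46, 7.12 and 6.76, a difference of 0.17 (SE 0.82) that became -0.14 without replicate 2. A second Cmah probe set differed by 1.00 (SE 0.68), with replicate 2 at 7.06, and by 0.11 without that replicate. The sources used here do not say which exons the deletion removes, so the Cmah probe sets do not check the genotype.

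Since nothing passed, the genes named here are the 12 with the smallest p in each direction among genes whose arrays did not overlap between the groups; all 24 had an adjusted p of 0.994 in limma. They were picked for their difference in these arrays, so that difference is described and supports nothing. Their differences ranged from 1.28 to 3.15 in size, and every one kept its sign without replicate 2. In 14 of the 24 the mean of the lower group lay below 4.78, the level that the filter required of at least 3 heart arrays, so the low side is close to background. For 5 of the 24 (Elovl7, Foxq1, Ccr1, Tfcp2l1 and an immunoglobulin segment) fewer than 3 arrays outside the higher group passed that level, so they entered the test only with the group in which they are high. Of the 24 genes, 18 had 1 tested probe set, and in 3 of the other 6 (Cep85, Arsk and Prxl2c) a second probe set differed in the opposite direction. The 24 genes lay on several chromosomes, with 8 on chromosome 13, where Cmah lies, 4 on chromosome 6 and 1 on chromosome 11. Chromosome 13 held 485 of the 13128 genes, and 60 of these (12.4%) did not overlap between the groups, against 8.96% of all genes and 8.94% of those on chromosome 11. An unadjusted p below 0.05 was found for 14 of the 485 (2.89%), against 1.12% on chromosome 11 and 0.998% of all genes.

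**Figure D2:**
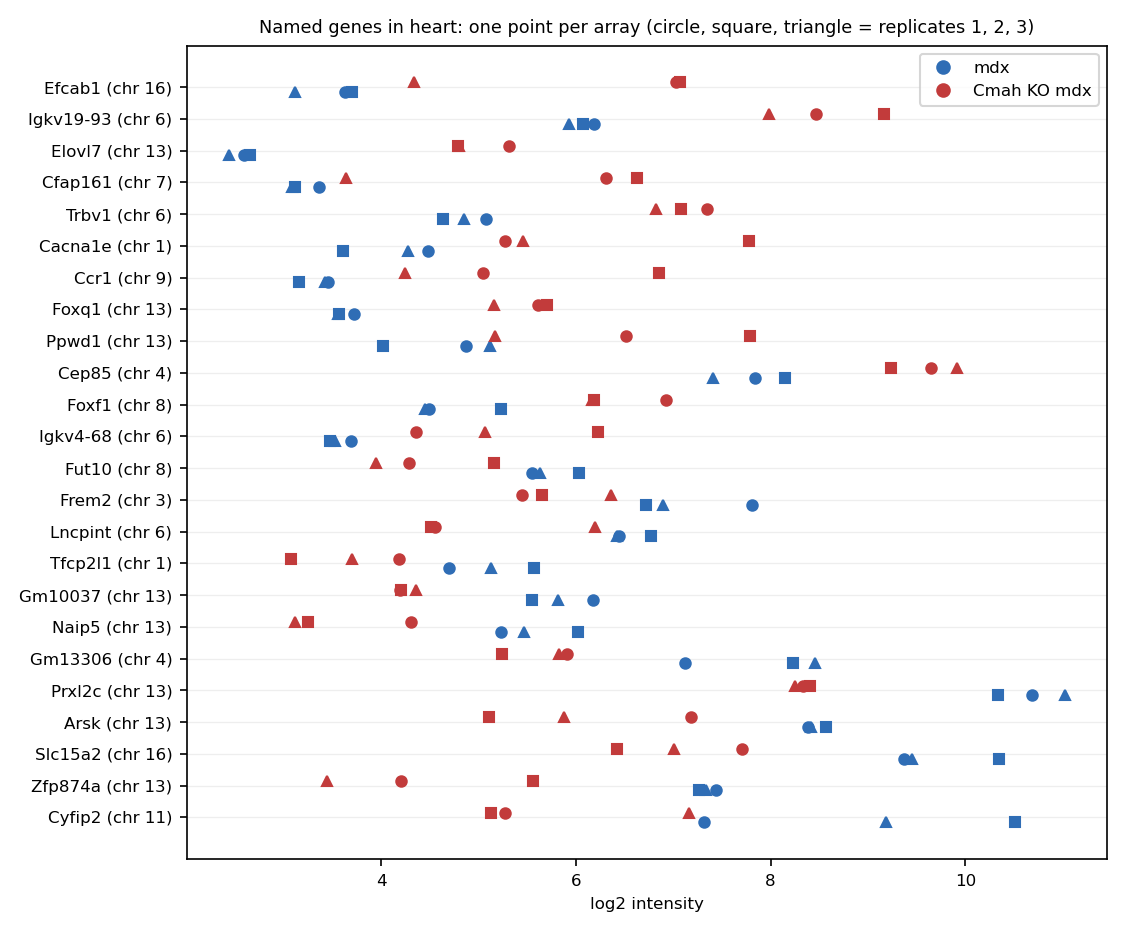
Log2 intensity of the 24 named genes in the 3 mdx and 3 Cmah KO mdx heart arrays, 1 point per array, with each gene's chromosome. By the rule that chose them the groups do not overlap; Zfp874a, for example, lies between 3.45 and 5.55 in Cmah KO mdx and between 7.26 and 7.44 in mdx.

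Of the lower genes, 5 lie on chromosome 13. Zfp874a, a zinc finger gene, read 4.20, 5.55 and 3.45 in Cmah knockout mdx hearts and 7.44, 7.26 and 7.33 in mdx hearts, a difference of -2.95 (SE 0.62), or -3.52 (SE 0.59) without replicate 2. Prxl2c, which encodes a peroxiredoxin-like protein, read 8.33, 8.41 and 8.25 against 10.69, 10.33 and 11.03, a difference of -2.35 (SE 0.56). Its 3 Cmah knockout mdx arrays agreed closely, the array with the high Gapdh difference included, but a second Prxl2c probe set read 6.04, 6.85 and 7.75 against 6.67, 6.05 and 6.33 (0.53, SE 0.52). Arsk, a lysosomal sulfatase, read 7.18, 5.11 and 5.88 against 8.39, 8.57 and 8.41 (-2.40, SE 0.56), so replicate 2 was the lowest there, and its second probe set differed by 1.12 (SE 0.65). Naip5, a receptor for bacterial flagellin in the inflammasome, read 4.30, 3.25 and 3.11 against 5.23, 6.02 and 5.47 (-2.02, SE 0.49). It belongs to a family of close copies, so the probe set may read more than 1 of them. The predicted gene Gm10037 differed by -1.60 (SE 0.44).

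Several of these probe sets had lower means in the Cmah knockout hearts that carry no mdx. Zfp874a averaged 4.31 ± 0.98 (SD, n = 3) there and 7.24 ± 0.56 in WT, Prxl2c averaged 7.75 and 9.91, and Arsk averaged 6.77 and 8.28. The difference between these 2 groups was not used to choose genes. Their 6 arrays did enter the filter, the choice of the brightest probe set and the estimate of the spread behind each p, so they are not independent of the choice. Of the 12 lower genes, 9 were also lower in Cmah knockout than in WT hearts (70.8% of all genes were), and of the 12 higher genes, 9 were also higher (29.2% of all genes were). Without the 2 arrays that stood apart these counts were 7 of 12 lower (47.2% of all genes) and 10 of 12 higher (52.8%). The 24 genes counted include the 5 that entered the test only with their higher group. The interaction, which asks whether the Cmah difference depends on mdx, was -0.01 (SE 0.87) for Zfp874a and -0.19 (SE 0.79) for Prxl2c. It passed at 0 of 29421 probe sets (0%; 143 at an unadjusted p below 0.05 in limma).

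Slc15a2 on chromosome 16, the peptide transporter PEPT2, also had a lower mean in Cmah knockout than in WT hearts, but with arrays that overlapped. It read 7.71, 6.43 and 7.01 in Cmah knockout mdx hearts and 9.37, 10.34 and 9.45 in mdx hearts, a difference of -2.67 (SE 0.75). Its mean was 9.67 in WT and 7.91 in Cmah knockout hearts. The Cmah knockout arrays read 9.54, 8.06 and 6.12, the last being the array that stood apart. The WT arrays read 8.84, 10.13 and 10.05. The predicted gene Gm13306 on chromosome 4 read 5.91, 5.24 and 5.83 against 7.12, 8.23 and 8.46 (-2.28, SE 0.64).

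Cyfip2 on chromosome 11, a subunit of the WAVE complex that drives actin branching, differed from these genes in its WT mean. It read 5.27, 5.13 and 7.16 in Cmah knockout mdx hearts against 7.32, 10.51 and 9.19 in mdx hearts, the largest difference of the 24 (-3.15, SE 0.93). The WT and Cmah knockout means were 6.65 and 5.87, so the mdx mean was the one that stood above the other three groups. The remaining lower genes were the noncoding RNA Lncpint (-1.46), the transcription factor gene Tfcp2l1 (-1.48), the fucosyltransferase gene Fut10 (-1.28) and Frem2 (-1.32), which encodes an extracellular matrix protein. The WT mean lay between the means of the compared groups for 11 of the 12 lower genes, all but Naip5, and for the 12 higher genes. The genes were picked for a gap between the compared groups, so another mean inside it is likely by the choice itself. The share over all genes was not counted, so this position is only described.

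Among the higher genes, Elovl7, Foxq1 and Ppwd1 lie on chromosome 13. Elovl7, an elongase of long-chain fatty acids, read 5.32, 4.79 and 4.80 in Cmah knockout mdx hearts and 2.60, 2.65 and 2.43 in mdx hearts, a difference of 2.41 (SE 0.51). Its WT mean was 2.58 and its Cmah knockout mean 3.20, where 2 arrays read 2.60 and 2.59 and the one that stood apart read 4.42. The forkhead gene Foxq1 read 5.61, 5.70 and 5.15 against 3.72, 3.57 and 3.55 (1.88, SE 0.55). Ppwd1, a nuclear prolyl isomerase, read 6.51, 7.79 and 5.17 against 4.87, 4.02 and 5.12, so its nearest arrays were almost level.

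Cep85 on chromosome 4, which encodes a centrosomal protein, read 9.65, 9.24 and 9.92 against 7.83, 8.15 and 7.41 (1.81, SE 0.41), with 9.01 in WT and 8.60 in Cmah knockout hearts. Its second probe set read 7.23, 4.59 and 8.15 against 7.90, 7.42 and 7.48 (-0.94, SE 0.76; 0.09 without replicate 2), so the readings of Cep85 disagree. Foxf1 on chromosome 8, another forkhead gene, read 6.92, 6.18 and 6.17 against 4.50, 5.23 and 4.46 (1.70, SE 0.52). Efcab1 (2.66) and Cfap161 (2.34), both genes of motile cilia, were high in replicates 1 and 2, at 7.03 and 7.07 for Efcab1, and at 4.33 and 3.63 in replicate 3. Cacna1e (2.04), a subunit of R-type calcium channels, and Ccr1 (2.04), a chemokine receptor of myeloid cells, were highest in replicate 2, at 7.77 and 6.85, and their differences without it were 1.24 and 1.30.

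Variable segments of antigen receptors made up the last of the higher genes. The T cell receptor segment Trbv1 read 7.35, 7.08 and 6.82 in Cmah knockout mdx hearts and 5.08, 4.63 and 4.86 in mdx hearts, a difference of 2.23 (SE 0.48), with means of 6.21 in WT and 6.95 in Cmah knockout hearts. A pair of immunoglobulin kappa segments on chromosome 6 differed by 2.47 (SE 0.83) and 1.66 (SE 0.57). The first read 8.46, 9.16 and 7.98 against 6.19, 6.07 and 5.93, and both were highest in replicate 2, whereas the B cell marker sum given below was highest in replicate 3. Segments of 1 family are alike, and the probe sets of Trbv1 and the second kappa segment carry the suffix for probes that can match other sequences, as do those of Elovl7 and Foxq1. Without replicate 2 the same rule, with 6 genes a direction, named 12 genes, of which 11 were among the 24; the addition was Clca1 (2.23, SE 0.69).

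Weighting the arrays by their agreement with the fit, which lowers the influence of noisy arrays, gave 19 of 29421 probe sets (0.0646%) an adjusted p below 0.05 in limma. Of these, 7 rose and 12 fell. Only 12 of the 19 carried a symbol and could be placed, with 5 on chromosome 13 and 4 on chromosome 11. These chromosomes held 485 and 1074 of the 13128 genes, and more than 1 of the 4 probe sets was of Uqcr10. The weights were 2.09, 0.177 and 0.478 for the Cmah knockout mdx arrays and 3.93, 0.999 and 3.52 for the mdx arrays, so replicate 1 carried most of its group. The calls held Elovl7 (adjusted p = 0.00493), Zfp874a and Cep85 (0.0166 each), Prxl2c (0.0203) and Trbv1 (0.0236) of the genes above. Elovl7 passed the filter through its 3 Cmah knockout mdx arrays alone, so it had to differ to be tested. In all, 3 of the 19 would have failed the filter without their higher group: Elovl7, a Ssu72 probe set and 1 with no symbol. With both arrays that stood apart left out, the weighted fit called 0. The following probe sets passed in the weighted fit and were chosen after their values were seen.

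Ctsl encodes cathepsin L, a lysosomal protease, and is the next protein-coding gene to Prxl2c on chromosome 13. One of its 2 probe sets read 4.89, 5.89 and 4.32 in Cmah knockout mdx hearts and 7.44, 8.30 and 8.12 in mdx hearts. The difference was -2.92 (SE 0.54), with an adjusted p of 0.00493 in the weighted limma fit. The WT mean was 7.33 and the Cmah knockout mean 4.39. The brighter Ctsl probe set, with an mdx mean of 11.28, differed by -0.65 (SE 0.55), so the 2 readings of the gene disagree. In a limma fit over all 24 arrays without replicate 2, the dim Ctsl probe set was the only one past the threshold in heart (-3.37, SE 0.50, adjusted p = 0.0433). Nid1, which encodes the basement membrane linker nidogen 1, is also on chromosome 13. One of its 3 probe sets read 5.47, 6.43 and 6.63 against 7.71, 7.14 and 7.54 (-1.29, SE 0.46), and the others differed by -0.24 (SE 0.45) and -0.25 (SE 0.50).

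Uqcr10, Sf3a1 and Dusp18 are close neighbours on chromosome 11, with 10 protein-coding genes between Dusp18 and Sf3a1 and 7 between Sf3a1 and Uqcr10. Uqcr10, a small subunit of respiratory complex III, read 5.52, 5.15 and 5.87 in Cmah knockout mdx hearts and 7.97, 7.84 and 9.07 in mdx hearts at 1 probe set (-2.78, SE 0.43). A second probe set of Uqcr10 differed by -3.26 (SE 0.74). The WT and Cmah knockout means of the first were 5.72 and 5.40, so the mdx hearts alone were high. The brightest Uqcr10 probe set, with an mdx mean of 12.29, differed by -0.29 (SE 0.38). Dusp18, a protein phosphatase gene, read 3.95, 3.95 and 5.75 against 8.06, 8.56 and 9.37 (-4.11, SE 0.76), and the splicing factor gene Sf3a1 differed by -2.98 (SE 0.62). Both were near their low level in WT (4.88 and 5.55) and Cmah knockout hearts (4.98 and 6.04). Their other probe sets differed by -0.55 for Dusp18 and by -0.77 and 0.30 for Sf3a1. Ssu72, a phosphatase of RNA polymerase II on chromosome 4, rose in the weighted fit at its dimmest probe set (2.76, SE 0.65, unweighted), and its brighter ones differed by -0.79 and -0.66. That dimmest probe set passed the filter only with the Cmah knockout mdx arrays, where it is high. The mdx arrays enter the choice of all these probe sets, so their being high there is a description.

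**Figure D3:**
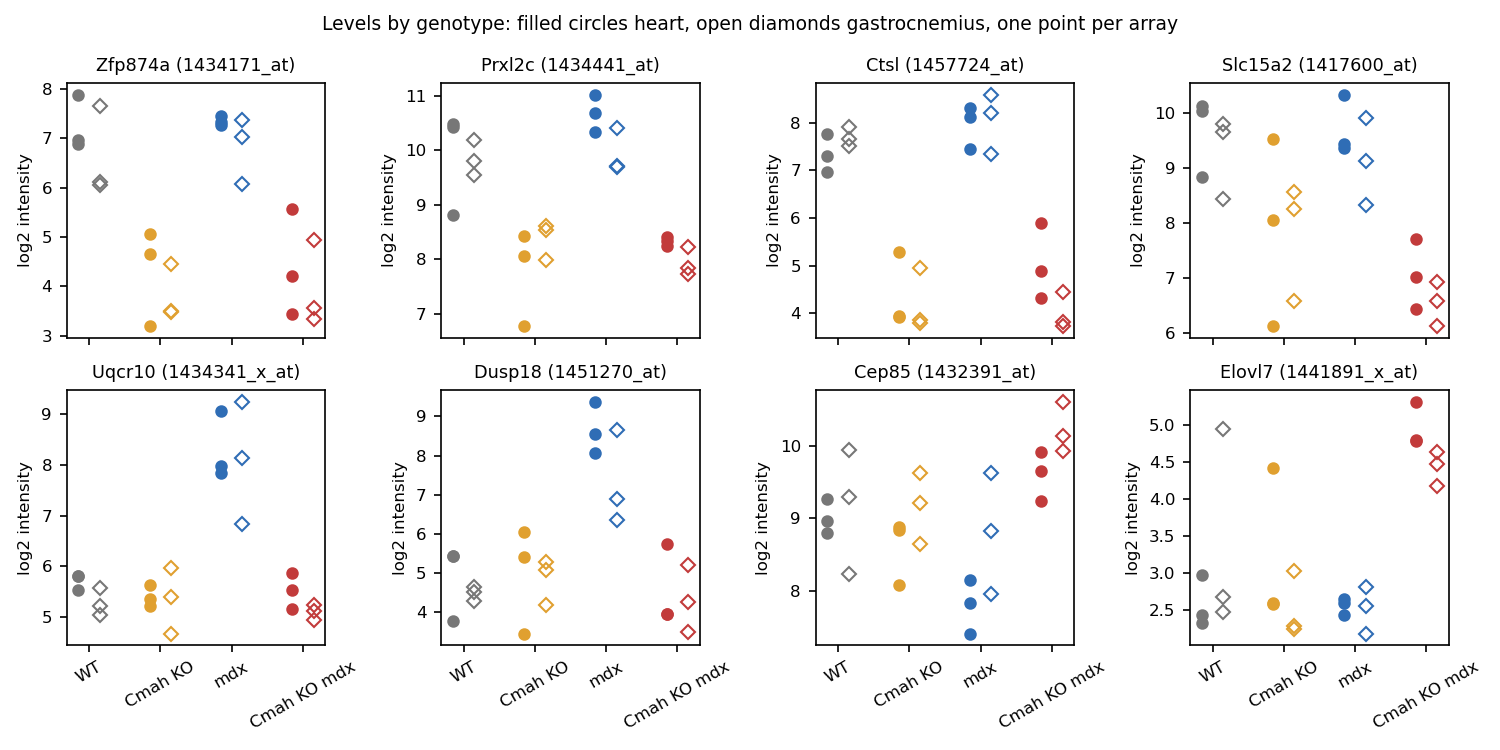
Log2 intensity of 8 probe sets by genotype in heart (filled circles) and gastrocnemius (open diamonds), 1 point per array. Zfp874a, Prxl2c, Ctsl and Slc15a2 have lower means in both genotypes that lack Cmah, with arrays that overlap for Slc15a2; Uqcr10 and Dusp18 are high in mdx alone, and Cep85 and Elovl7 are higher in Cmah KO mdx than in mdx heart.

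The gastrocnemius gave readings of the same genes on arrays that the choice did not use, though from the same animals. All 24 named genes had the same sign there. Of all genes, 58.8% were higher in Cmah knockout mdx than in mdx gastrocnemius. The share of all genes with the same sign in both tissues was not counted, so the agreement of the 24 has no background beside it. The 24 include the 5 that entered the heart test only with their higher group, and Elovl7 below is 1 of them. Of the 12 higher genes, 3 were above every mdx gastrocnemius array (2.77% of all genes were), namely Elovl7 (1.91, SE 0.56), Cep85 (1.42, SE 0.46) and Ppwd1 (0.94, SE 0.50). Of the 12 lower genes, 7 were below every mdx array (1.29% of all genes were): Zfp874a (-2.88), Arsk (-1.87), Prxl2c (-2.01), Gm10037 (-1.36), Gm13306 (-1.38), Slc15a2 (-2.59) and Fut10 (-1.41). None of the 24 passed in gastrocnemius. In a limma fit over all 24 arrays, 4 of 29421 probe sets (0.0136%) passed there: the dim Ctsl probe set (fell by 4.04, adjusted p = 0.00132), both dim Uqcr10 probe sets (fell by 4.19 and 2.98, 0.0218 each) and a probe set with no symbol (fell by 3.82, 0.0202). These 4 were among the 19 of the weighted heart fit. The one with no symbol had passed the heart filter only with the mdx hearts, where it is high. The difference between the tissues was 1.12 (SE 0.61) for Ctsl and 0.20 (SE 0.58) for Uqcr10 at the first probe set above. It passed at 0 of 29421 probe sets (0%; 368 at an unadjusted p below 0.05 in limma). In gastrocnemius Trbv1 differed by 0.54 (SE 0.83) and Foxq1 by 0.51 (SE 0.89), and their tissue differences were 1.68 (SE 1.03) and 1.37 (SE 1.12).

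Across 13128 genes the heart difference correlated with that of Cmah knockout against WT hearts (Pearson r = 0.37), and less without the 2 arrays that stood apart, 1 in each contrast (r = 0.17). With the gastrocnemius difference r was 0.22, and 0.26 without replicate 2; the tissues come from the same animals, and genes are not independent replicates.

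Gene lists were read at the brightest probe set of each gene, and 0 members of any of the 44 lists passed. List medians differed between the Cmah knockout mdx arrays. Set against the mdx mean, the median was below 0 for 35 of the 44 lists in replicate 1 and for 34 in replicate 2, the arrays with raised Gapdh differences (1.60 and 4.43). It was below 0 for 6 lists in replicate 3, whose Gapdh difference (0.48) equalled that of mdx replicates 1 and 3. With the Gapdh difference as a covariate the median of all genes moved from -0.10 to 0.23, and 34 lists turned sign. In bulk tissue fewer cells of a type and less RNA per cell cannot be told apart.

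**Figure D4:**
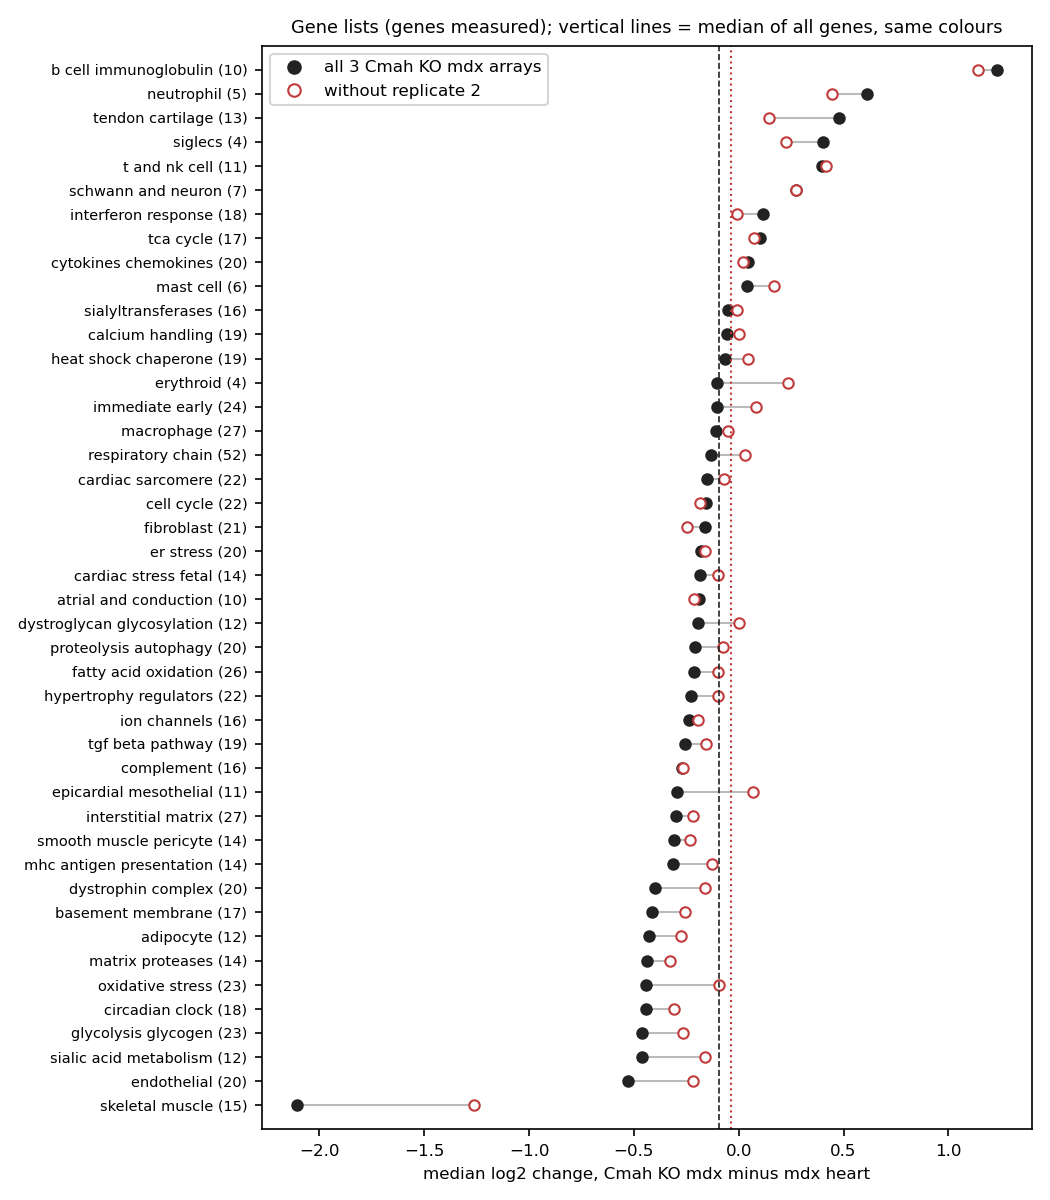
Median log2 difference between Cmah KO mdx and mdx hearts for each gene list, with the number of genes measured in brackets, over all 3 Cmah KO mdx arrays (filled) and without replicate 2 (open). Vertical lines mark the median of all genes, -0.10 (dashed) and -0.04 (dotted); the skeletal muscle list is lowest at -2.11 and the B cell list highest at 1.23.

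The circadian list was the one with the largest share of lower genes without overlap. Of 18 measured clock and output genes, 4 were higher (43.2% of all genes were), 14 were lower and 6 lay below every mdx array (33.3%; all genes, 4.89%): Per1, Per2, Per3, Tef, Hlf and Dbp. The median was -0.44, or -0.31 without replicate 2, where 2 were higher (45.2% of all genes were). Per1, a repressor of the core clock, read 6.36, 4.98 and 7.81 in Cmah knockout mdx hearts and 8.44, 7.93 and 8.12 in mdx hearts (-1.78, SE 0.67; -1.08 without replicate 2). Its partner Per2 read 5.37, 7.47 and 8.48 against 8.71, 9.09 and 8.57 (-1.68, SE 1.04), and Per3 read 9.64, 8.22 and 10.07 against 10.62, 10.79 and 11.05 (-1.51, SE 1.17). In each of these replicate 3 was the closest to the mdx arrays. The output genes Tef (-0.86, SE 0.51), Hlf (-0.46, SE 0.76) and Dbp (-0.40, SE 0.58), which encode bZIP transcription factors, and Ciart (-1.67, SE 0.92), a repressor, were lower too. The activators went the other way in value: Arntl differed by 1.22 (SE 0.69) and Npas2 by 0.69 (SE 0.48), while Clock differed by -0.14. Between arrays of a raised Gapdh difference (Cmah knockout mdx replicate 1 minus mdx replicate 2) the list median was -0.74, and between arrays of a low one (replicate 3 minus the mean of mdx replicates 1 and 3) it was -0.11. With the Gapdh covariate it was 0.04, or -0.18 relative to all genes. In gastrocnemius the median was -0.22, with Per1 at -0.82 and Npas2 at 1.10.

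**Figure D5:**
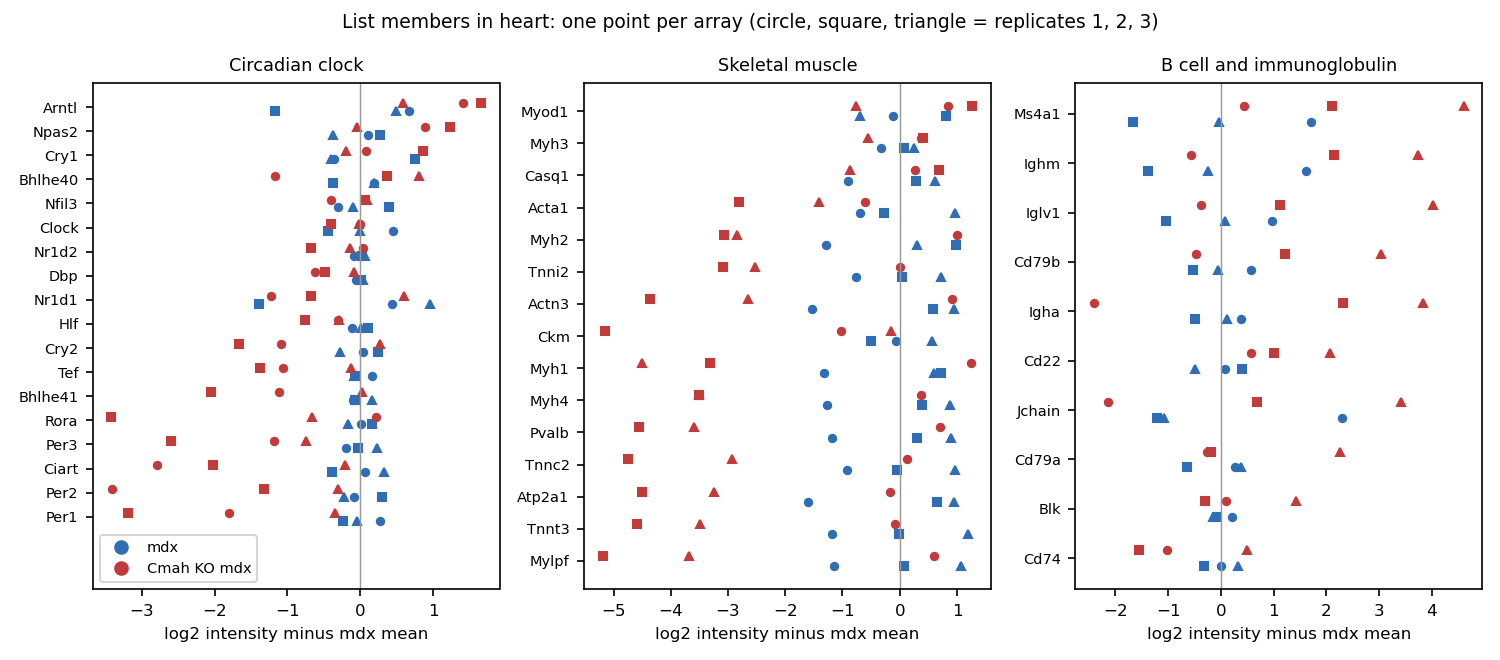
Log2 intensity of list members in heart minus the mdx mean of each gene, 1 point per array. Per1, Per2 and Per3 are low in Cmah KO mdx replicates 1 and 2; fast muscle genes are low in replicates 2 and 3, and B cell genes are high in replicate 3.

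Fast skeletal muscle genes gave the lowest list median, -2.11 (-1.26 without replicate 2), with 12 of 15 measured genes lower, yet in no gene did the groups separate. The summed intensity of 7 skeletal muscle markers was 11154, 447 and 733 in Cmah knockout mdx hearts, 3580, 9208 and 15283 in mdx hearts, and between 1659 and 17030 in WT hearts. Mylpf, a fast myosin light chain, read 11.43, 5.64 and 7.14 against 9.68, 10.89 and 11.90 (-2.76, SE 1.28), and the fast troponin gene Tnnt3 read 10.40, 5.91 and 7.00 against 9.30, 10.48 and 11.69 (-2.72, SE 1.18). Replicates 2 and 3 were low and replicate 1 was among the high arrays. Myh1, Myh4, Pvalb, Tnnc2 and Atp2a1 showed the same pattern, with differences between -2.19 and -2.64. The part of other muscle in the dissected tissue was not tested.

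B cell and immunoglobulin genes gave the highest median, 1.23 (1.14 without replicate 2), with 9 of 10 higher. The values came from replicate 3 above all. Ms4a1, which encodes CD20, read 4.82, 6.49 and 8.98 against 6.07, 2.71 and 4.34 (2.39, SE 0.99), and Ighm read 7.21, 9.91 and 11.52 against 9.40, 6.40 and 7.53 (1.77, SE 1.13). The sum of Cd79a, Cd79b and Ms4a1 was 75.8, 202 and 937 in Cmah knockout mdx and 154, 48.7 and 88.4 in mdx hearts. In Cmah knockout hearts this sum was 169, 449 and 415, the last in the array that stood apart, against 56.2 to 82.1 in WT. Without replicate 3 the list median was 0.16. Cd22, a sialic acid-binding receptor of B cells whose mouse form prefers Neu5Gc, was the 1 member without overlap: it read 5.15, 5.59 and 6.65 against 4.66, 4.98 and 4.09 (1.22, SE 0.55). That is 10% of the list higher without overlap, against 4.07% of all genes.

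Receptors and enzymes of sialic acid biology are the ones closest to Cmah. Of the 4 siglecs measured, Cd22, Cd33 (0.35, SE 0.36) and Siglech (0.45, SE 0.53) lay above every mdx array (4.07% of all genes did), and Siglece differed by -0.37. The median of the 4 was 0.40, or 0.23 without replicate 2. With the Gapdh covariate it was 0.15, against 0.23 for all genes. The array held 8 of the listed siglecs, of which 4 passed the filter. All 4 were dim, between 4.09 and 6.65. Of 12 genes of sialic acid synthesis, transport and removal, 8 were lower, with a median of -0.46 that became -0.16 without replicate 2. The plasma membrane sialidase gene Neu3 was the 1 member without overlap: it read 7.44, 6.31 and 8.04 against 8.10, 8.65 and 8.53 (-1.16, SE 0.63). That is 8.33% of the list lower without overlap, against 4.89% of all genes. The lysosomal sialidase gene Neu1 read 3.57, 3.47 and 6.02 against 6.03, 4.99 and 6.29 (-1.42, SE 0.78). Gne (-0.30), the first enzyme of the pathway, and Cmas (0.18), which activates sialic acid with CMP, showed smaller differences than their SE of 0.55 and 0.42. The 16 sialyltransferases had a median of -0.05, with 8 higher and 8 lower, and St6galnac2 (0.35, SE 0.37) lay above every mdx array. That is 6.25% of this list, against 4.07% of all genes.

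The dystrophin complex and its partners had a median of -0.40, with 17 of 20 genes lower, and -0.16 without replicate 2. In Cmah knockout mdx replicate 3 the median against the mdx mean was 0.07. With the Gapdh covariate the list median was 0.15, against 0.23 for all genes. Utrn, which encodes the dystrophin homologue utrophin, read 11.93, 10.56 and 11.65 against 11.78, 12.26 and 12.15 (-0.68, SE 0.64; -0.28 without replicate 2). Delta-sarcoglycan (Sgcd) read 6.61, 6.73 and 6.79 against 7.24, 7.39 and 8.57 (-1.02, SE 0.64), and by -1.03 without replicate 2. Sntb2 (-0.80, SE 0.49) and Sspn (-0.50, SE 1.19), a syntrophin and sarcospan, also lay below every mdx array, whereas Nos1, the nitric oxide synthase of the complex, lay above (0.65, SE 0.60). Of the 20 genes, 3 lay below every mdx array (15%, against 4.89% of all genes) and 1 above (5%, against 4.07%). Dystroglycan (Dag1) differed by -0.33 (SE 0.66) and the laminin gene Lama2 by -0.26 (SE 0.56). The 12 enzymes that glycosylate dystroglycan had a median of -0.19, and 0.00 without replicate 2.

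Contractile genes of the heart differed little. Of 22 sarcomere genes 14 were lower, with a median of -0.15 (-0.07 without replicate 2). Myl2, the ventricular light chain, read 13.53, 13.51 and 13.47 against 13.38, 13.46 and 13.51, and Myh6, the main adult myosin, differed by 0.13 (SE 0.36). Myom2 (0.22), Pdlim5 (0.25) and Xirp1 (0.29) lay above every mdx array and titin (Ttn, -0.29) below, each by less than its SE of 0.36, 0.35, 0.51 and 0.38. These were 13.6% of the list above (4.07% of all genes) and 4.55% below (4.89% of all genes). Of the stress and fetal genes, Myh7 read 9.54, 10.87 and 10.11 against 8.72, 10.23 and 9.14 (0.81, SE 0.75). Nppa differed by -0.29 (SE 0.48), and Nppb by -1.12 (SE 0.97) with replicate 2 and by -0.05 without it. Acta1, the skeletal actin that stressed ventricles also express, read 9.55, 7.36 and 8.75 against 9.48, 9.89 and 11.13 (-1.61, SE 0.69), beside the low skeletal muscle markers of replicates 2 and 3. Myl7, an atrial light chain, read 10.64, 11.18 and 12.70 against 13.01, 8.08 and 12.83, and the sum of 4 atrial markers was 5638 in mdx replicate 2 and 27138 and 24751 in the other two mdx arrays.

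Calcium handling genes had a median of -0.06 and 0.00 without replicate 2. Of 19 genes, 3 lay below every mdx array (15.8%, against 4.89% of all genes). Among them were the ryanodine receptor Ryr2 (-0.25, SE 0.48) and the sodium-calcium exchanger Slc8a1 (-0.63, SE 0.55). Phospholamban (Pln, 0.24, SE 0.35) lay above every mdx array (5.26% of the list, against 4.07% of all genes). Atp2b1, the plasma membrane calcium pump, read 10.22, 3.39 and 10.26 against an mdx mean of 10.84 ± 0.18 (SD, n = 3), so its difference of -2.88 (SE 1.66) came from replicate 2 and was -0.60 without it. Of the ion channels, Scn4b, a sodium channel subunit, read 8.26, 7.55 and 8.62 against 8.77, 9.93 and 10.08 (-1.45, SE 0.80; -1.16 without replicate 2). The growth factor receptor gene Igf1r read 8.51, 7.94 and 9.27 against 9.95, 9.67 and 10.19 (-1.36, SE 0.53; -1.04 without replicate 2), and its Gapdh-adjusted difference was -0.78.

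Matrix and vessel genes were mostly lower in value in Cmah knockout mdx replicates 1 and 2. In replicate 3 the medians against the mdx mean were 0.03 (interstitial matrix), 0.16 (endothelial) and 0.05 (basement membrane). With the Gapdh covariate the medians were 0.19, 0.25 and 0.30, against 0.23 for all genes. Of 27 interstitial matrix genes 20 were lower, with a median of -0.30 (-0.22 without replicate 2), and 4 lay below every mdx array (14.8%; all genes, 4.89%). Col1a1, the main fibrillar collagen chain of scar tissue, read 10.64, 10.83 and 10.80 against 11.12, 10.83 and 11.21 (-0.30, SE 0.37), and Col8a1 differed by -0.50 (SE 1.18). Lox, which crosslinks collagen, and Thbs2 read 4.24 and 5.78 in replicate 2, and their differences shrank from -1.73 and -1.89 to -0.53 and -0.65 without it. Of 20 endothelial genes 17 were lower (median -0.53, and -0.22 without replicate 2), and the sum of Pecam1, Cdh5, Kdr and Tie1 was 1134, 507 and 2207 in Cmah knockout mdx and 2573, 1352 and 2469 in mdx hearts. Of 17 basement membrane genes 14 were lower (median -0.42, and -0.25 without replicate 2), of which agrin (Agrn, -0.42, SE 0.96) lay below every mdx array. That is 5.88% of the list, near the 4.89% of all genes.

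Immune genes other than those of B cells gave no common shift. Of 27 macrophage genes 17 were lower, with a median of -0.11 against -0.10 for all genes, and the sum of Cd68, Adgre1, Csf1r and C1qa was between 2709 and 3378 in Cmah knockout mdx and between 2471 and 2727 in mdx hearts. Of 11 T and NK cell genes 9 were higher (median 0.40), with Cd4 (0.40, SE 0.50) and Cd8a (0.46, SE 0.44) above every mdx array at levels near 5. These 2 were 18.2% of the list, against 4.07% of all genes. Set against the mdx mean, the list median was -0.10, 0.24 and 0.66 in Cmah knockout mdx replicates 1, 2 and 3. In these arrays 7, 5 and 1 of the 11 genes were lower, so the rise was largest in replicate 3. The median of complement genes was -0.27 with and without replicate 2, and that of the 18 interferon response genes was 0.12 (11 higher, 7 lower), turning to -0.0092 (9 and 9) without it. Cfp, which encodes properdin, read 7.37, 5.91 and 7.47 against 7.82, 7.79 and 8.41 (-1.09, SE 0.54). The 52 respiratory chain genes had a median of -0.13 (0.03 without replicate 2), the 26 genes of fatty acid oxidation one of -0.22 (-0.097 without replicate 2) and the 17 of the citric acid cycle one of 0.10 (0.07).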

How the data were processed

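The authors deposited linear intensity values for 45101 probe sets; per the submitters' processing notes they used GCOS and RMA, with no versions given. For this comparison the 64 control probe sets were left out and log2 was taken of the other 45037. Of these, 34945 carry 1 gene symbol, 932 several and 9160 none. The RefSeq table of GRCm38.p6 was used for names and gene order only, and 34741 probe sets matched it. A probe set was tested where at least 3 of 12 heart arrays exceeded the 40th percentile of heart values. Means of the 4 heart groups were fitted with limma (lmFit and eBayes, two-sided) under R 4.3.3; errors of differences are its SE. The fit over all 24 arrays kept the animal as a random block. The number of arrays limits the precision. The script was tested on simulated data. The labels name each animal, so replicates are separate animals; replicate numbers do not pair them. Besides Dmd and Cmah, genes were named by smallest p among those without overlap, up to 12 a direction (6 without replicate 2), and members of lists by smallest p or in full. Members and lists were chosen with earlier results of these data known.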

Additional observations from a re-analysis of the deposited data

How the results depend on the processing

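The count of probe sets past the threshold was 0 in heart and was 0 again with each of the 6 arrays left out in turn (0 to 0), both arrays that stood apart left out, the Gapdh difference as a covariate, no filter or the 60th percentile, quantile normalization, median centring, the 6 compared arrays alone, all 24 arrays, a trended and robust prior, and log2(intensity + 16). Array weights gave 19. With both arrays left out and the Gapdh covariate, chosen after seeing the data, it was 1 (Rsl1, which fell by 2.47, adjusted p = 0.0364 in limma). The count at an unadjusted p below 0.05 ran from 106 without Cmah knockout mdx replicate 2 to 3083 without replicate 3 and 7055 with weights, against 464. With the replicate number as a block the count was 0; deviations of same-numbered arrays correlated at -0.40, 0.09 and 0.28, so the numbers do not pair the animals. The 24 named genes kept their sign in all of these where tested (11 at the 60th percentile, 23 after quantile normalization). Dmd turned to 0.027 with the Gapdh covariate. Cmah turned to -0.17 without Cmah knockout mdx replicate 1, to -0.14 without replicate 2 or both arrays, to -0.92 with both left out and the covariate, and to -0.031 with both left out and weights; with each array left out in turn it lay between -0.17 and 0.81. Of 44 list medians, 8 changed sign without replicate 2 and 5 after quantile normalization. In the fit over all 24 arrays it was 1 without that replicate (the dim Ctsl probe set) and 1 after quantile normalization (a probe set with no symbol). The latter passed the filter only with the mdx hearts, where it is high. Siglecs had no tested member at the 60th percentile. Weighting with both arrays left out and differences within a Gapdh level were also chosen after seeing the data. Interaction and tissue counts were 0 in the alternatives run for them. The cause of these moves was not tested.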
